A study of Mus musculus with 15 samples.

Results

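The primary cilium transport genes were the 34 of 25080 listed genes whose symbol is Ift or Bbs followed by a number, or is Arl13b, Arl3, Arl6, Kif3a, Kif3b, Kif17, Kifap3, Tulp3, Inpp5e, Rpgrip1l, Adcy3 or Fuz. The rule takes symbols only. RNA came from the microdissected thalamus of male mice aged 2 to 4 months on a C57Bl6J background. Control mice (Maged1 WT in the sample titles, Maged1 Loxp in the genotype tag) carried the floxed Maged1 allele without Cre, and Maged1-cKO mice carried it together with Vglut2-Cre, which is active in glutamatergic Vglut2 neurons and leaves Maged1 intact in other cells. All mice had 3 days of saline injections, followed by 5 days of daily cocaine (20 mg/kg, intraperitoneal) or of saline, and each library is a separate biological replicate. Of 14 libraries, 4 were labelled as control mice given saline, 4 as control mice given cocaine, 4 as cKO mice given saline and 2 as cKO mice given cocaine. Another cKO cocaine sample, which brings the series to 15, was not analysed here. For this tissue the paper's methods count more cocaine than saline samples, whereas the sample titles give fewer cocaine than saline samples. The values are TPM, transcript abundance corrected for transcript length and library total, which the authors computed and deposited for each library. Here each library was divided by a trimmed-mean (TMM) factor, and levels below are such scaled TPM.

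The primary cilium is a single antenna-like projection that most neurons and astrocytes carry, built on a centriole and kept separate from the cell body by a gate at its base. Intraflagellar transport (IFT) moves cargo along it on trains built of the IFT-A and IFT-B complexes. Kinesin-2 motors carry the trains to the tip and dynein-2 carries them back. The BBSome, a coat complex recruited by the GTPase Arl6, takes membrane receptors out of the cilium, and Arl3, activated by Arl13b, releases lipid-modified proteins inside it. Neuronal cilia hold G-protein-coupled receptors and the adenylyl cyclase Adcy3.

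The labels and the tissue were checked first. Maged1, the targeted gene, was at 150 to 166 scaled TPM in the libraries labelled control saline and at 64.5 to 78.0 in those labelled cKO saline. In the cocaine groups the order was the opposite, at 58.5 to 87.9 under the label control cocaine but 153 and 174 under the label cKO cocaine. The Maged1 level of the cocaine libraries therefore goes against their labels, and every direction below that involves a cocaine group follows the label only. If those labels were exchanged, each comparison of cocaine with saline within a label would also compare genotypes. Treatment and genotype could then not be told apart in it, and the interaction would be a genotype difference over both treatments. Title and genotype tag also disagree on the genotype of 4 saline libraries, and the titles were followed. In these Maged1 was at 150 and 151 in control saline replicates 3 and 4 and at 78.0 and 76.6 in cKO saline replicates 1 and 2. These levels go with the titles and not with the tags. TMM factors were 0.807 to 0.947 in the 6 cocaine libraries and 1.07 to 1.21 in the 8 saline libraries, with no overlap, so the scaling moves with the treatment. Each of 11 genes listed for thalamic glutamatergic neurons was detected. Rbfox3, Snap25 and Syt1 among them mark neurons in general, so the sum of the list is not particular to that cell type. The summed levels of all 11 were 1090 to 1280 in control saline and 1310 to 1550 in the libraries labelled control cocaine, with no overlap. In the libraries labelled cKO they were 1240 to 1410 after saline and 1260 to 1370 after cocaine, which overlap. Markers of neighbouring tissue varied widely, and the sum of 8 hypothalamic genes ran from 4.16 to 464 scaled TPM.

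All 34 genes passed the filter of at least 1 TPM in at least 3 libraries. Kifap3, the accessory subunit of kinesin-2, had the highest level, with a mean over libraries of 47.6 scaled TPM, followed by Arl3 at 43.9, Ift22 at 23.3 and Kif3a at 22.2. The lowest were Bbs10 at 1.02, Bbs12 at 1.26 and Arl13b at 2.13. These levels are per transcript length and can be compared between genes.

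**Figure D1:**
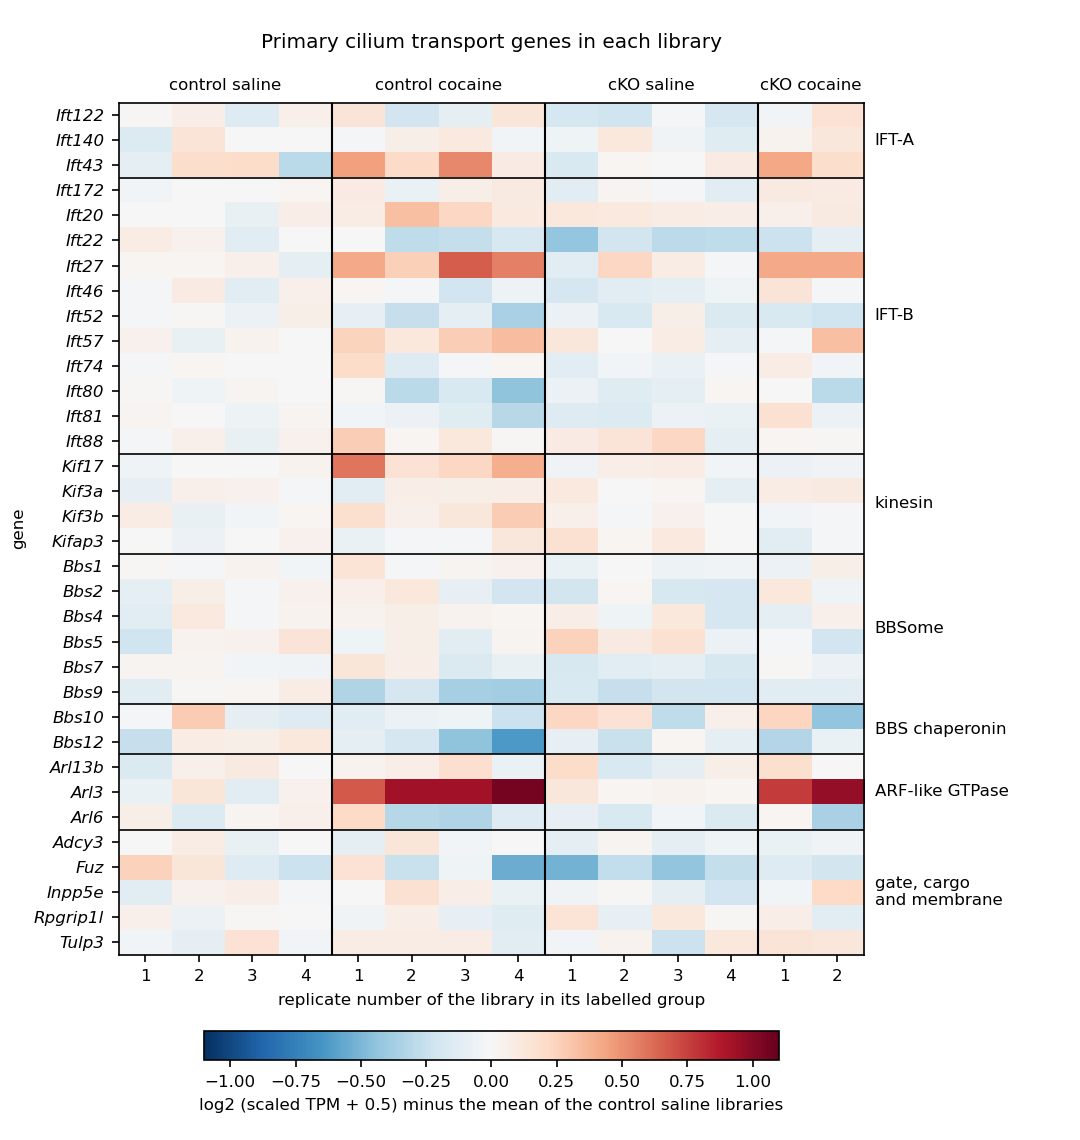
Level of each of the 34 primary cilium transport genes (vertical axis, grouped by role) in each of the 14 libraries (horizontal axis, grouped by label), as log2 (scaled TPM + 0.5) minus the mean of the 4 control saline libraries. The deepest red is Arl3 in all 6 cocaine libraries, and Ift27 is also red in all 6.

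Cocaine was first compared with saline in the libraries labelled control. Of the 34 genes, 6 rose and 2 fell at an adjusted p-value under 0.05 (limma, Benjamini-Hochberg over all 13471 tested genes). Over all tested genes 24.3% were called, 15% higher and 9.35% lower, and the members' share was close to this background. Without control cocaine replicate 1 the balance turned, with 4 members higher and 6 lower, and under quantile normalization 4 were higher and 3 lower. The median log2 fold change was 0.01 over the members and 0.01 over all genes. Relative to the other genes of the library, Arl3, Ift27, Kif17, Ift57, Ift20 and Kif3b rose, and Bbs9 and Ift52 fell. On TPM as deposited, with no scaling, the median of all genes moved by -0.34, 1 member was called higher and 27 lower, and Ift20 (-0.19), Ift57 (-0.12), Kif17 (-0.00) and Kif3b (-0.21) were at or below 0. Measured from that median they were at 0.15, 0.22, 0.33 and 0.13, and Arl3 was at 0.52 before and 0.85 after subtracting it. In whole tissue, a change in the number of cells of a type cannot be told apart from a change in RNA per cell.

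**Figure D2:**
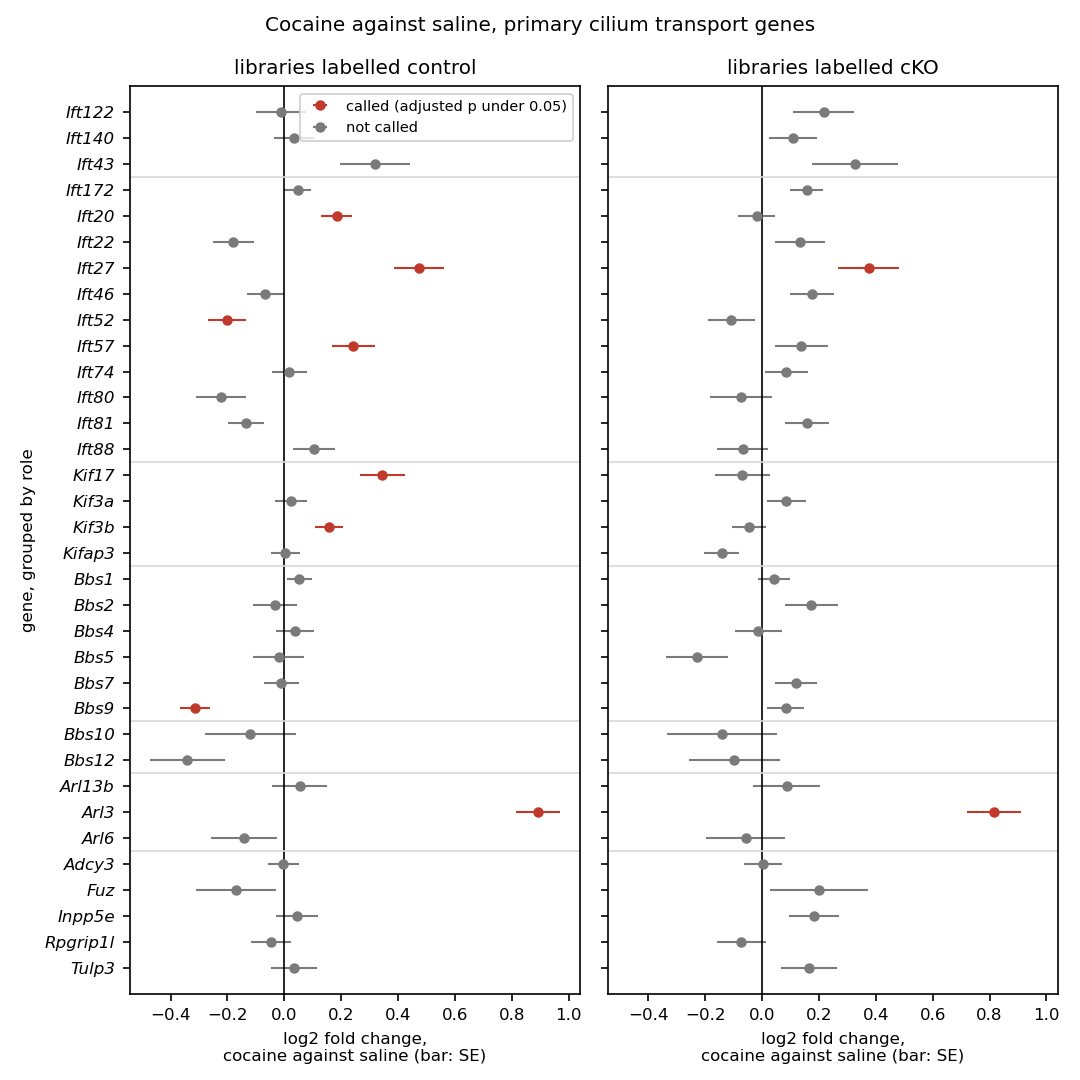
Log2 fold change of cocaine against saline (horizontal axis, bar: SE) for the 34 genes (vertical axis, grouped by role) in the libraries labelled control (left) and cKO (right), with genes called at an adjusted p-value under 0.05 in red. Arl3 stands farthest from 0 on both sides, at 0.89 and 0.82, and Ift20, Ift57, Kif17 and Kif3b, above 0 on the left, are at or below it on TPM as deposited.

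Among the ARF-like GTPases, Arl3, which frees lipidated cargo from its carriers in the cilium, changed most. It lies on chr19:46531096-46573198 on the minus strand (GRCm38), and the annotation has no gene overlapping it. Arl3 was at 30.2, 34.8, 29.2 and 32.9 scaled TPM in control saline and at 51.0, 60.4, 60.7 and 66.3 in the libraries labelled control cocaine. All 4 cocaine libraries were above all 4 saline libraries. The group means were 31.8 ± 2.55 (SD, n = 4) and 59.6 ± 6.34 (SD, n = 4), a log2 fold change of 0.89 (SE 0.08, limma, adjusted p = 2.76e-05). For mice labelled cKO the values were 34.6, 32.2, 32.7 and 32.2 after saline and 54.5 and 62.4 after cocaine. Here too both cocaine libraries were above every saline library, with means of 32.9 ± 1.15 (SD, n = 4) and 58.4 ± 5.56 (SD, n = 2) and a log2 fold change of 0.82 (SE 0.09, limma, adjusted p = 0.000346). By absolute log2 fold change Arl3 was in place 234 of the 13471 tested genes in the control comparison and in place 325 in the cKO comparison. The interaction, the difference between the responses in the 2 genotypes, was -0.08 (SE 0.12, limma, adjusted p = 0.784). Arl13b, the GTPase that activates Arl3, had log2 fold changes of 0.05 (SE 0.10) and 0.09 (SE 0.12), and Arl6, which recruits the BBSome to membranes, of -0.14 (SE 0.12) and -0.06 (SE 0.14), none of them called.

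**Figure D3:**
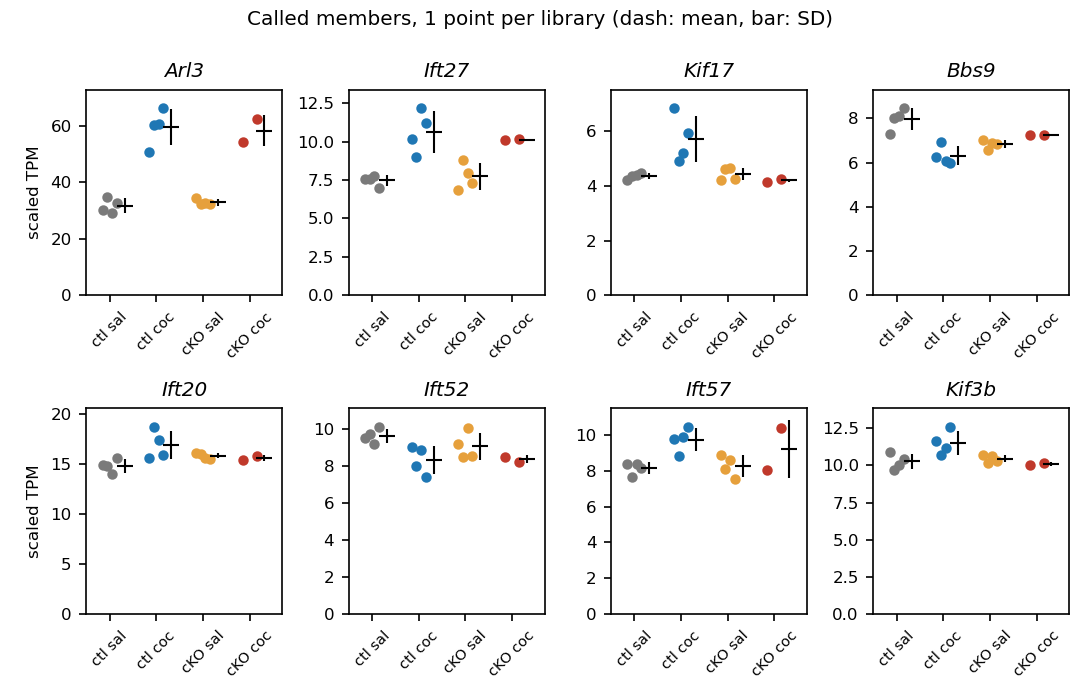
Scaled TPM (vertical axis from 0) of the 8 genes called in at least 1 comparison, 1 point per library, by labelled group (ctl: control, sal: saline, coc: cocaine), with the group mean (dash) and SD (bar). Arl3 and Ift27 show no overlap between the 6 cocaine and the 8 saline libraries, though those of Ift27 overlap on TPM as deposited. Kif17 is above its saline libraries in the group labelled control cocaine but not in the group labelled cKO cocaine.

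Of the 11 IFT-B genes, 3 rose and 1 fell in the control comparison, against 15% and 9.35% of all tested genes. Ift27, a Rab-like GTPase subunit of the train that also works with the BBSome in ciliary exit, lies on chr15:78159463-78174107 on the minus strand. It was at 7.57, 7.59, 7.79 and 6.95 scaled TPM in control saline and at 10.2, 9.03, 12.2 and 11.2 in the libraries labelled control cocaine. Every cocaine library was above every saline library, and the log2 fold change was 0.47 (SE 0.09, limma, adjusted p = 0.00236). Under the label cKO, Ift27 was at 6.84, 8.82, 7.94 and 7.33 after saline and at 10.1 and 10.2 after cocaine. The groups did not overlap, and the log2 fold change was 0.37 (SE 0.11, limma, adjusted p = 0.027). This call was lost without cKO saline replicate 1 or 4 or without either cKO cocaine library, with adjusted p-values from 0.0554 to 0.146 (limma). In scaled TPM, Arl3 and Ift27 were the members whose 6 cocaine libraries were all above all 8 saline libraries, against 5.77% of all tested genes. For 0 members the cocaine libraries were all below, against 4.87%. On TPM as deposited Ift27 was at 0.11 in the control comparison (limma, adjusted p = 0.29). Under the label cKO it was at 0.01 (limma, adjusted p = 0.928), and neither was called. Its cocaine and saline libraries then overlapped, and measured from the median of all genes it was at 0.45 and 0.36.

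Ift57, a peripheral IFT-B subunit that contacts kinesin-2, was at 8.40, 7.65, 8.36 and 8.14 scaled TPM in control saline and at 9.75, 8.85, 9.90 and 10.4 in the libraries labelled control cocaine. The groups did not overlap (log2 fold change 0.24, SE 0.08, limma, adjusted p = 0.0343). Ift20, a small subunit that is also found at the Golgi, was at 14.9, 14.8, 13.9 and 15.6 in control saline and at 15.6, 18.7, 17.4 and 15.9 in the libraries labelled control cocaine. The highest saline library lay just under the lowest cocaine library (log2 fold change 0.18, SE 0.05, limma, adjusted p = 0.0242). Ift52, a scaffold of the IFT-B core, went the other way, from 9.50, 9.70, 9.17 and 10.1 in control saline to 9.00, 7.998, 8.87 and 7.41 after cocaine. Again the groups did not overlap (log2 fold change -0.20, SE 0.07, limma, adjusted p = 0.0423). In the libraries labelled cKO these genes were not called, at 0.14 (SE 0.09) for Ift57, -0.02 (SE 0.07) for Ift20 and -0.11 (SE 0.08) for Ift52. The control calls of all 3 were lost without some single libraries, 7 of 14 for Ift57, 5 for Ift20 and 9 for Ift52. The other 7 IFT-B genes, Ift22, Ift46, Ift74, Ift80, Ift81, Ift88 and Ift172, had log2 fold changes from -0.22 (Ift80, SE 0.09) to 0.10 (Ift88, SE 0.07) in the control comparison and were not called.

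Of the 4 kinesin-2 genes, 2 rose in the control comparison, against 15% of all tested genes. Kif17, the homodimeric kinesin-2 that also carries NMDA receptor subunits in dendrites, was at 4.22, 4.38, 4.38 and 4.49 scaled TPM in control saline and at 6.84, 4.92, 5.20 and 5.93 in the libraries labelled control cocaine. All 4 cocaine libraries were above all saline libraries, with means of 4.37 ± 0.112 (SD, n = 4) and 5.72 ± 0.857 (SD, n = 4) and a log2 fold change of 0.34 (SE 0.08, limma, adjusted p = 0.00773). After saline the libraries labelled cKO had 4.23, 4.62, 4.66 and 4.26, and after cocaine 4.16 and 4.25. These overlapped, with a log2 fold change of -0.07 (SE 0.10). The interaction was -0.42 (SE 0.13) and missed the threshold (limma, adjusted p = 0.0984). Kif17 lies on chr4:138250435-138301967 on the plus strand and overlaps Sh2d5 on the same strand, which had a log2 fold change of 0.11 (SE 0.05) in the control comparison (limma, adjusted p = 0.117). Kif3b, a motor subunit of the heterotrimeric kinesin-2, was at 10.9, 9.68, 10.1 and 10.4 in control saline and at 11.6, 10.7, 11.2 and 12.6 in the libraries labelled control cocaine. These groups overlapped, although the gene was called (log2 fold change 0.16, SE 0.05, limma, adjusted p = 0.0371), and the call was lost without any 1 of 5 libraries. Its partners Kif3a and Kifap3 had log2 fold changes of 0.02 (SE 0.06) and 0.00 (SE 0.05) and were not called, and differences between the 4 genes were not tested.

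Promoters of many cilium genes carry the X-box, the motif bound by RFX transcription factors, so the promoters of the members were searched for it. RefSeq promoters (GRCm38.p6, from 250 bases before to 50 bases after the start) were found for 31 of the 34 genes. The X-box was matched on either strand in 3 of them, Bbs1, Ift57 and Kif17, which is 9.68%, against 1.85% of the 18557 listed genes with a promoter. GTTGCC, 1 arm of the X-box and so overlapping it, was in 12 of 31 (38.7%) against 14.1% of the listed genes. The matches upstream of the RefSeq start in the called genes are printed on the strand of the gene, with the X-box in capitals, for Ift57 at chr16:49699199-49699228 and chr16:49699226-49699254 and for Kif17 at chr4:138262170-138262198. The GTTGCC before the RefSeq start of Ift27 (chr15:78174082-78174098) is printed as well, in capitals, and was chosen after its values were seen. The RefSeq starts of Ift57, Kif17 and Ift27 lie inside the GENCODE spans of these genes, so a match before one can be inside the gene span given above.
Ift57, first match: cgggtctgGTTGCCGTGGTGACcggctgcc
Ift57, second match: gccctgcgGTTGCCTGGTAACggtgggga
Kif17: tcacggagGTTGCCCAGCAACggcgaacg
Ift27: tgatgatgGTTGCCagg
Of the called genes, Arl3, Bbs9, Ift20, Ift52 and Kif3b had neither motif in this window. A match describes the letters only and was not tested for binding.

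Bbs9, a core subunit of the BBSome, had the smallest adjusted p among the members that fell in the control comparison. It lies on chr9:22475715-22888280 on the plus strand, with 4 annotated genes on the opposite strand inside its span. Bbs9 was at 7.30, 8.04, 8.09 and 8.46 scaled TPM in control saline and at 6.25, 6.93, 6.07 and 5.998 in the libraries labelled control cocaine. All 4 cocaine libraries were below all 4 saline libraries, with means of 7.97 ± 0.487 (SD, n = 4) and 6.31 ± 0.427 (SD, n = 4) and a log2 fold change of -0.32 (SE 0.05, limma, adjusted p = 0.00144). This call was lost by the genotype tags, at -0.18 (limma, adjusted p = 0.125), and with the 10 libraries whose title and tag agree, at -0.26 (limma, adjusted p = 0.0614). The tags place saline libraries with high and with low Maged1 in the same groups. In the libraries labelled cKO, Bbs9 was at 7.04, 6.59, 6.87 and 6.83 after saline and at 7.25 and 7.27 after cocaine. Both cocaine libraries were above the saline libraries by a narrow margin, with a log2 fold change of 0.08 (SE 0.07) that was not called (limma, adjusted p = 0.401). The other 5 BBSome subunits among the members, Bbs1, Bbs2, Bbs4, Bbs5 and Bbs7, had log2 fold changes between -0.03 (SE 0.08) and 0.05 (SE 0.04) in the control comparison. Bbs12, of the chaperonin that assembles the BBSome, was at 1.12, 1.54, 1.52 and 1.60 in control saline and at 1.30, 1.21, 0.921 and 0.752 in the libraries labelled control cocaine. These groups overlapped and the change missed the threshold (log2 fold change -0.34, SE 0.13, limma, adjusted p = 0.0771). Bbs10, of the same chaperonin, had a log2 fold change of -0.12 (SE 0.16).

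None of the 3 IFT-A genes was called, although Ift43 was at 0.48 with the mean of the motile cilium list as a covariate (limma, adjusted p = 0.0366). Ift43, a small IFT-A subunit, had log2 fold changes of 0.32 (SE 0.12, limma, adjusted p = 0.0789) in the control comparison and 0.33 (SE 0.15, limma, adjusted p = 0.15) in the cKO comparison, and Ift122 and Ift140 of -0.01 (SE 0.09) and 0.03 (SE 0.07) in the control comparison. Of the genes of the gate, cargo and membrane, Tulp3, the adapter that brings receptors to IFT-A, had a log2 fold change of 0.03 (SE 0.08) and Inpp5e, the phosphatase that sets the ciliary lipid composition, of 0.04 (SE 0.07). Rpgrip1l, a transition zone protein, was at -0.05 (SE 0.07). Adcy3, which marks neuronal cilia, had the same level in both control groups, 11.6 ± 0.558 and 11.6 ± 0.853 scaled TPM (SD, n = 4 each). Fuz, a planar polarity effector needed to recruit IFT proteins, was at -0.17 (SE 0.14). None of these 5 genes was called in any of the comparisons.

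Under the label cKO, Arl3 and Ift27 rose after cocaine, 2 of 34, and 0 fell (limma). Over all tested genes 19.9% were called, 9.19% higher and 10.7% lower, so the members' share was below that of all genes, and this difference was not tested. The median log2 fold change was 0.09 over the members and 0.00 over all genes. At an unadjusted p under 0.05 there were 5 members, against 33.7% of all tested genes. With a further minimum of 0.5 on the absolute log2 fold change, Arl3 alone was called in each genotype, against 3.1% of all tested genes in the control and 3.07% in the cKO comparison. Both cocaine libraries were above all saline libraries for 9 members and below them for 1, against 21.1% and 22.2% of all tested genes. In the control comparison the same count was 5 above and 2 below, against 14.9% and 10.3% of all tested genes. The 2 comparisons share no library. Ift172, the largest IFT-B subunit, came next at 0.16 (SE 0.06, limma, adjusted p = 0.0752), and Kifap3 was lowest by adjusted p among the genes below 0, at -0.14 (SE 0.06, limma, adjusted p = 0.129).

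Genotype was compared within each treatment. After saline, 0 of the 34 genes were called by limma, beside 21 of all 13471 tested genes (0.156%), and 4 members were under an unadjusted p of 0.05, against 16.7% of all tested genes. Ift22, an IFT-B GTPase, was at 27.5, 26.9, 23.7 and 25.9 scaled TPM in control saline and at 19.2, 22.5, 21.1 and 21.3 in the libraries labelled cKO saline. These did not overlap, but the change missed the threshold (log2 fold change -0.30, SE 0.07, limma, adjusted p = 0.0861). Bbs9 followed with -0.21 (SE 0.05, limma, adjusted p = 0.104). For 6 members all cKO saline libraries were below all control saline libraries and for 0 above, against 5.8% and 7.02% of all tested genes. Marker lists moved with the same groups: without overlap, 21 of 24 motile cilium and ependymal genes were lower in the libraries labelled cKO saline (list median -0.86), as were 3 of 6 habenula genes (-1.25) and 4 of 7 hypothalamic genes (-1.32), and 4 of 8 oligodendrocyte genes were higher (0.44). Of these, Oxt alone was called by limma, and their part in the members' values was not tested. After cocaine, 0 of 34 were called by limma, beside 8 of all tested genes (0.0594%), and 4 members were under an unadjusted p of 0.05, against 12.1% of all tested genes. Kif17 was farthest from 0, at -0.39 (SE 0.10, limma, adjusted p = 0.187), with the libraries labelled cKO cocaine below all of those labelled control cocaine. The groups did not overlap for 3 members above and 2 below, against 7.03% and 10.6% of all tested genes.

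The response to cocaine was compared between the genotypes by the interaction. Bbs9 was the one member called, at 0.40 (SE 0.08, limma, adjusted p = 0.0435), among 182 of the tested genes (1.35%, with 0.564% called in the same direction). Its log2 fold change was -0.32 in the libraries labelled control and 0.08, not called, in those labelled cKO, and the difference of cKO minus control was -0.21 after saline and 0.19 after cocaine, neither called. The call rests on the genotype labels of the cocaine libraries, which their Maged1 level goes against. With those labels exchanged, the same contrast would be a difference between the genotypes over both treatments, not in the response. The call was kept without control saline replicate 1 or control cocaine replicate 1 or 2 and lost without any 1 of the other 11 libraries. Over all 14 of these fits the adjusted p-values ran from 0.0231 to 0.145 (limma). Next by adjusted p came Kif17, as given above, Ift81 at 0.29 (SE 0.10, limma, adjusted p = 0.14) and Ift22 at 0.31 (SE 0.11, limma, adjusted p = 0.157).

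Other genes of the cilium, 95 listed and 90 tested, gave a setting for the members. In the control comparison 8 rose and 15 fell (median -0.06 on the log2 scale), and in the cKO comparison 10 rose and 7 fell, with a median of 0.05. Over all tested genes 15% were called higher and 9.35% lower in the control comparison, and 9.19% and 10.7% in the cKO comparison. These shares are the background for each list of other cilium genes below. Of the 7 genes of dynein-2, the motor that returns trains to the base, 2 rose and 2 fell in the control comparison. Dynlrb1, a light chain shared with cytoplasmic dynein, rose by 0.75 (SE 0.07, limma, adjusted p = 5.91e-05) and by 0.79 (SE 0.09, limma, adjusted p = 0.000323) in the libraries labelled cKO. Dync2h1, the heavy chain specific to dynein-2, fell by 0.45 on the log2 scale in the control comparison (SE 0.07, limma, adjusted p = 0.000879). Wdr60, an intermediate chain, rose by 0.29 (SE 0.07, limma, adjusted p = 0.0133), and Dync2li1, the light intermediate chain, fell by 0.28 (SE 0.09, limma, adjusted p = 0.0294).

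Both IFT complexes have further subunits with other names. Of 6 tested IFT-B genes, Traf3ip1 rose by 0.26 (SE 0.07, limma, adjusted p = 0.0228) and Ttc26 fell by 0.30 (SE 0.08, limma, adjusted p = 0.0129) in the control comparison. Of 3 IFT-A genes, Wdr35 fell by 0.18 (SE 0.04, limma, adjusted p = 0.00941) and Ttc21b by 0.24 (SE 0.07, limma, adjusted p = 0.0301). Of 21 transition zone genes 0 rose and 4 fell, Cep290, Rpgr, Ahi1 and Tmem67, with log2 fold changes from -0.49 to -0.22. Of 14 centriole and basal body genes 3 rose, Cep131, Cep83 and Poc1a, at 0.27, 0.21 and 0.45. Of 17 ciliary receptor and signalling genes, Sstr3, a somatostatin receptor of neuronal cilia, rose by 0.33 (SE 0.08, limma, adjusted p = 0.00839), and Pkd2 and Npy2r fell by 0.23 and 0.60. Sstr3 was also the one gene outside the rule called for the interaction, at -0.58 (SE 0.12, limma, adjusted p = 0.043), beside 1.35% of all tested genes. Like that of Bbs9, this call rests on the genotype labels of the cocaine libraries, and it was not examined under the other settings. Of 15 genes of ciliary GTPase and lipid trafficking, Unc119, a carrier from which Arl3 frees lipidated cargo, rose by 0.24 (SE 0.07, limma, adjusted p = 0.0221), while Tbc1d32 and Nek8 fell by 0.32 and 0.36. Of 6 further BBSome and BBS genes Wdpcp fell by 0.31, and Intu, the 1 planar polarity effector tested, fell by 0.40. Under the label cKO these lists held 8 genes that rose and 7 that fell.

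Motile cilia share IFT and dynein genes with primary cilia, and markers of ependymal cells, which carry motile cilia on the ventricle wall, moved with the groups. Summed over 27 motile cilium and ependymal genes, levels were 69.8 to 78.7 scaled TPM in control saline, 11.7 to 69.8 in the libraries labelled control cocaine, 12.4 to 46.6 in cKO saline and 56.4 to 77.2 in cKO cocaine, and 1 of the 27 was at 0 in every library. Of 24 tested, 0 rose and 6 fell in the control comparison (median -0.78), Spag16, Dnaic2, Dnah12 and Rsph9 first by adjusted p, and 2 rose in the cKO comparison (median 0.77). Over all tested genes 15% were called higher and 9.35% lower in the control comparison, and 9.19% higher in the cKO comparison. The lowest sums were those of control cocaine replicate 4 and cKO saline replicate 1. Without these 2 libraries 5 members were called in the control comparison, Arl3 at 0.84, Ift27 at 0.45, Kif17 at 0.33, Ift20 at 0.21 and Bbs9 at -0.29, and Arl3 alone at 0.84 in the cKO comparison. With the mean of the motile list as a covariate 5 were called in the control comparison, with Arl3 at 0.77, Ift27 at 0.48, Kif17 at 0.39, Bbs9 at -0.31 and, as a gained call, Ift43 at 0.48, and Arl3 alone at 0.94 in the cKO comparison. Under both settings the interaction of Bbs9 was not called, at 0.39 and 0.38. The part of ependymal cells in the remaining results was not tested.

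Genes of other marker lists were also called in the control comparison, where 15% of all tested genes were called higher and 9.35% lower. Of 7 hypothalamic genes tested 4 fell, Oxt and Avp most, by 7.89 and 5.07 on the log2 scale. Of the 11 genes listed for thalamic glutamatergic neurons 5 rose and 1 fell. Among those that rose were Rbfox3 by 0.43 and Syt1 by 0.28, which mark neurons in general and not this cell type alone. Of 8 oligodendrocyte genes 3 rose, Mobp, Mbp and Mal, at 0.61, 0.46 and 0.43. Of 8 astrocyte genes Aldh1l1 rose by 0.22 and Slc1a3 fell by 0.25. The lists of the choroid plexus (summed level 6.60 to 1480 scaled TPM), habenula (8.42 to 172), inhibitory neurons (34.9 to 309), microglia (60.9 to 74.6) and endothelium (44.4 to 55.3) held 0 called genes by limma in this comparison, and 1, 0, 0, 2 and 1 genes at an unadjusted p under 0.05. The part of tissue composition in the members' results was not tested.

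Fold changes moved with base composition across all genes, between the treatments and also between the 2 saline groups. Over 13186 tested genes with a known transcript, the Spearman correlation of the log2 fold change with GC content was 0.34 in the control comparison and 0.50 in the cKO comparison, given as a description, since genes share the same libraries. In the members it was 0.28 and 0.54 over 34 genes. For cKO against control it was -0.24 over all these genes after saline and 0.08 after cocaine, and -0.26 and -0.00 in the members. For the interaction it was 0.20, and 0.15 in the members. In the control comparison the median log2 fold change ran from -0.13 for transcripts under 40% GC to 0.10 for those at 56% and over. Arl3 has 47.2% GC, and its bin of 44 to 48% had medians of -0.03 and -0.07 in the 2 comparisons. Ift27 has 55.8% and Kif17 60.1% GC, in bins with medians of 0.08 and 0.10 in the control comparison. With trends of GC content and length removed, Arl3 was at 0.96 and 0.85 and called in both comparisons, Bbs9 at -0.33 and Ift27 at 0.42 were called in the control comparison, and Kif17 fell short at 0.23 (limma, adjusted p = 0.0709). Of the other members, Ift20, Ift57 and Ift52 stayed called there, Kif3b was lost at 0.12 (limma, adjusted p = 0.101) and Ift22 was gained at -0.23 (limma, adjusted p = 0.0368), which makes 4 higher and 3 lower. Ift27 in the libraries labelled cKO was then not called, at 0.24 (limma, adjusted p = 0.18), while Ift81 was, at 0.30 (limma, adjusted p = 0.0209).

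**Figure D4:**
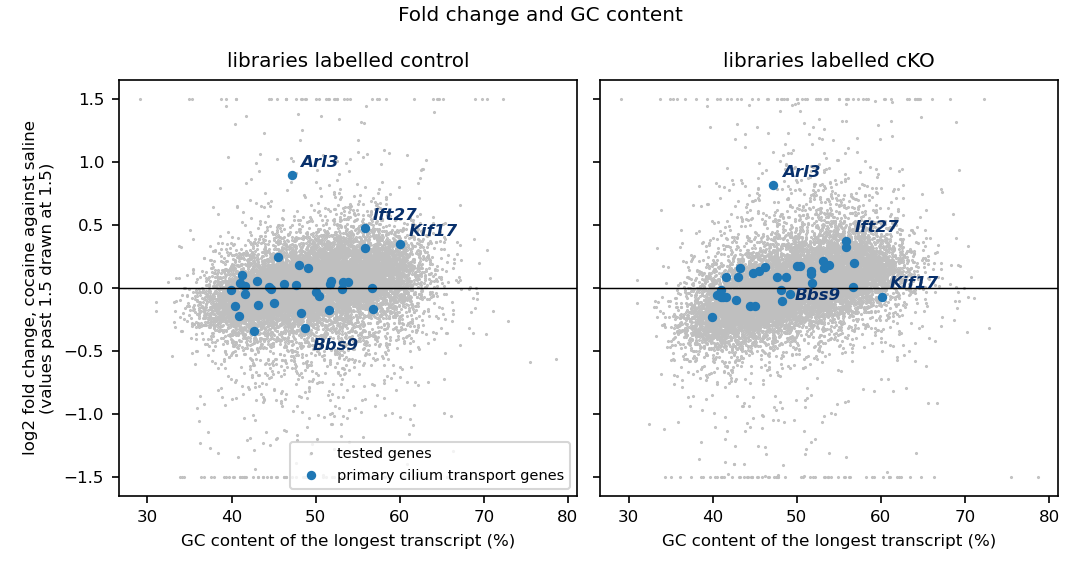
Log2 fold change of cocaine against saline (vertical axis, values past 1.5 drawn at 1.5) and GC content of the longest transcript (horizontal axis, percent) for tested genes (grey) and the 34 primary cilium transport genes (blue), in the libraries labelled control (left) and cKO (right). Fold changes rise with GC content over all genes. Arl3, at 47.2% GC, is at 0.89 and 0.82, in place 234 and 325 of the tested genes by absolute log2 fold change.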

How the data were processed

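Whole-thalamus RNA was ribodepleted and sequenced in 14 libraries. Per the paper's methods, the authors mapped reads to GRCm38 with STAR, quantified them with salmon and summarized genes with tximport, and the submitters' processing notes give STAR 2.5.3a. They deposited 1 table of TPM per library. In 2 tables the deposited values, recorded as unit other, are TPM with a decimal comma, read here as a point. TPM keep no depth, so counting error is unknown; listed TPM summed to 312659 to 377401.

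Groups came from the sample titles. TPM were divided by unweighted TMM factors (30% of ratios and 5% of means trimmed), 0.5 was added and log2 was taken, which understates changes of low genes. All 14 libraries entered limma 3.58.1 (R 4.3.3) as a means model of 4 groups with an intensity trend, over the 13471 genes that reached 1 TPM in 3 or more libraries. Calls needed a Benjamini-Hochberg adjusted p under 0.05 over all tested genes, with no fold minimum. Members called in any of the 5 comparisons are given by library. Of other lists, at most 4 genes with the smallest adjusted p in the control comparison are named. The members and lists were chosen with earlier results of these data known. GC content, length and loci came from GENCODE M21 (GRCm38), found for 97.9% of tested genes; promoters came from RefSeq. No member had a near-identical copy (95% identity over at least 200 bases, BLAST 2.17.0). Python 3.11.15, numpy 2.4.6, pandas 2.3.3 and matplotlib 3.10.9 were used. Alternatives covered scaling, pseudocount, filter, intensity trend, sample sets, the genotype tags, a replicate block, a fold minimum and a motile cilium covariate. Tested on simulated control cocaine data with 13298 genes tested, the fit called 91 of 100 with a log2 change of 1 and 53 of 100 with 0.3, with 3 false calls. There the noise was independent between genes, no other gene was changed and there was no trend with GC content. In the data 24.3% of tested genes were called in that comparison and fold changes moved with GC content, so these rates cannot be carried over to them.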

Additional observations from a re-analysis of the deposited data

Results flagged for a closer look

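In 5 of 102 sets of 4 libraries of 1 group, 1 library stood apart from the other 3 by Dixon's test, which chance alone does in about 1 of 20 sets. Bbs12 was at 1.12 scaled TPM in control saline replicate 1 and at 1.52 to 1.60 in the other 3 libraries. Kif3a was at 20.1 in control cocaine replicate 1 and at 22.8 to 23.1 in the others, and Tulp3 was at 4.02 in control cocaine replicate 4 and at 4.71 in each of the others. Bbs2 was at 6.09 in cKO saline replicate 2 (others 5.12 to 5.24), and Ift122 was at 4.98 in cKO saline replicate 3 (others 4.26 to 4.37). None of these 5 genes was called in any comparison. The response of Bbs9 to cocaine differed between the genotypes as labelled, by 0.40 on the log2 scale (limma, adjusted p = 0.0435), and this call was lost under 9 of 14 other settings and without any 1 of 11 of the 14 libraries. Each cause was not tested.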

How the results depend on the processing

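Arl3 was called in both cocaine comparisons under all 15 other settings and without any 1 library, with log2 fold changes from 0.52 to 0.97 in the libraries labelled control and from 0.44 to 0.94 in those labelled cKO. The main count of 8 members called in the control comparison became 28 on TPM as deposited, 5 with the compared groups alone, with the motile cilium covariate or without the pair of libraries lowest for the motile list, 3 by the genotype tags, 2 with the 10 libraries whose title and tag agree, and 1 with a fold minimum of 0.5 (Arl3). In the cKO comparison the count of 2 became 18 on TPM as deposited and 1 with the 10 agreeing libraries, the fold minimum, the motile covariate or without that pair. The 1 interaction call, Bbs9, became 0 on TPM as deposited, with no filter, no intensity trend, the replicate block, the genotype tags, the 10 agreeing libraries, the fold minimum, the motile covariate or without that pair. The genotype comparisons stayed at 0 under every setting run. Leaving out 1 library gave 4 to 10 calls in the control comparison, with 10 (4 higher, 6 lower) without control cocaine replicate 1, 4 without control saline replicate 2 or 3 and 5 without control saline replicate 4. It gave 1 to 3 in the cKO comparison, with 1 without cKO saline replicate 1 or 4 or either cKO cocaine library and 3 without control cocaine replicate 2 or cKO saline replicate 2, and 0 to 1 for the interaction and 0 to 0 for both genotype comparisons. On TPM as deposited Ift20 (-0.19), Ift57 (-0.12), Kif17 (-0.00) and Kif3b (-0.21) in the control comparison and Bbs9 (-0.27) in the cKO comparison turned sign, and all genes moved by -0.34 and -0.35, so that the members' medians of -0.35 and -0.27 were -0.01 and 0.08 from that of all genes. For the 8 members called in any comparison, 592 values were computed under other settings over the 5 comparisons, of which 530 kept their side of the threshold, 53 lost a call, 4 gained one and 5 turned sign; 25 of the 530, not called before or after, also changed sign. Same-numbered libraries come from different animals and did not deviate together (mean correlation -0.014 over 18 pairs, 0.005 over 54 other pairs). With the replicate block 6 members were called in the control comparison, 2 in the cKO comparison and 0 for the interaction, and with GC content and length trends removed as well 5, 1 and 0. The pair left out and the GC setting were chosen after seeing the data. Beyond these constructions, the causes were not tested. Depth is unknown from TPM, and 2 libraries in the cKO cocaine group limit every comparison that uses it.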
